A study of Rattus norvegicus with 18 samples.

Results

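The epithelium and the underlying fibroblasts of tongue squamous cell carcinomas were compared to find which layer of the tumour carried which signals at the mRNA level. All samples whose labels gave the carcinoma stage entered the comparison, 3 of epithelia and 3 of fibroblasts, 6 of the 18 samples of the series. The carcinomas arose in male Sprague Dawley rats that drank water with 0.002% 4NQO, a DNA-damaging quinoline that gives rise to oral tumours, and that were killed from week 14 to week 22 once lesions were visible. The normal samples, used here only to compare stages, came from rats given distilled water, and the dysplasia samples came from 4NQO rats, with 3 samples per layer at each stage. No source used here states the age of the rats. Each sample pooled tissue of 3 rats and was read on 1 Affymetrix rat expression array. Whether the pools came from separate rats is not stated. The p-values therefore reflect variation among these samples that may be partly technical, and the 3 arrays per group limit the precision. The layers were prepared differently. The epithelium was lifted off after an overnight dispase digestion in the cold and frozen, whereas the connective tissue was digested with warm collagenase and plated in serum medium for a short time, and the adherent cells were taken as fibroblasts. The layer and its preparation therefore cannot be told apart in any difference below, and in bulk samples of this kind fewer cells of a type and less RNA per cell cannot be told apart either.

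The tongue is covered by a stratified squamous epithelium in which basal cells divide on the basement membrane and their progeny switch keratins, build desmosomes and assemble the cornified envelope on the way to the surface. Below it lies connective tissue in which fibroblasts make collagen among vessels, nerves and leukocytes. In inflammation the interleukin-1 (IL-1) cytokines Il1a and Il1b bind Il1r1 and its partner Il1rap, and the signal runs through Myd88 and the Irak kinases to NF-kB, which switches on chemokines, cytokines and the prostaglandin enzyme Ptgs2 (COX2). The receptor antagonist Il1rn and the decoy receptor Il1r2 oppose it.

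The 2 layers differed over a large part of the array. All values below are log2 probe set signals, differences are epithelia minus fibroblasts with their standard error, and a probe set was called when its limma p-value, adjusted over 31042 probe sets, was under 0.05. By that rule 4479 probe sets (14.4%) were higher in the epithelia and 4934 (15.9%) were higher in the fibroblasts. Among the calls of at least 2-fold the fibroblasts held more, 3080 against 1418. The balance depended on the scaling, which a whole-array shift can move. The epithelia held 47.6% of the calls on the deposited values, 57.8% after quantile normalization and 71.6% after alignment on the spiked control transcripts, which moved the median difference of all probe sets from 0.06 to 0.37. Small uncalled differences therefore have no settled direction, and larger ones are read against a median that lies 0.31 higher under that alignment. With 1 probe set for each of 14217 genes, 13.9% were higher in the epithelia and 19.5% in the fibroblasts, and these shares are the background for the gene lists below. The full set gave 9413 calls. Leaving out 1 array at a time gave 6086 without epithelia 1, 5787 without epithelia 3, 5489 without fibroblasts 1 and from 6932 to 7673 without each of the other 3. Of 303 called genes followed through these fits 198 kept their call in all 6. A gene described below that did not is given with its highest adjusted p in these fits.

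The epithelial and fibroblast marker lists each averaged higher in the layer of that name, but neither layer was free of the other. The epithelial marker list averaged 12.76, 12.74 and 12.87 in the 3 epithelial samples and 12.30, 12.18 and 11.31 in the 3 fibroblast samples. The fibroblast list averaged 9.40, 11.44 and 7.49 in the epithelia and 11.90, 11.61 and 12.33 in the fibroblasts. Epithelia 2 carried nearly as much fibroblast signal as the fibroblast samples, and fibroblasts 3 carried the least epithelial signal of its group. The basal keratins were high in every sample. Krt14, the keratin of basal cells, read 14.20, 14.30 and 14.32 in the epithelia and 14.13, 14.12 and 13.98 in the fibroblasts, and its partner Krt5 read 13.30, 13.46 and 13.57 in the epithelia and 13.68, 13.57 and 13.60 in the fibroblasts. Neither was called (differences 0.20 and -0.18, adjusted p = 0.223 and 0.316) and both lay above 13 in all 6 samples. The sign of the Krt5 difference turned to 0.13 under the spike-in alignment. Cdh1, the E-cadherin of epithelial junctions, was higher in the epithelia at 12.87, 12.63 and 12.88 in the epithelia and 11.96, 11.76 and 11.09 in the fibroblasts, a difference of 1.19 ± 0.24 (adjusted p = 0.0133). The epithelial surface marker Epcam read 11.27, 11.08 and 11.32 in the epithelia and 11.01, 10.92 and 10.03 in the fibroblasts and was not called (0.57 ± 0.27, adjusted p = 0.154), with fibroblasts 3 apart from the other 5 samples.

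On the fibroblast side the check turned on epithelia 2. Col1a1, a chain of type I collagen, read 10.83, 12.87 and 8.09 in the epithelia and 12.56, 12.23 and 12.59 in the fibroblasts, and the groups overlapped, with epithelia 2 the highest of all 6. Its difference was -1.86 ± 1.08 (adjusted p = 0.228), and without epithelia 2 it was -3.001 (adjusted p = 0.0317). Col1a2 gave -2.73 ± 1.35 (adjusted p = 0.166), against -4.22 (adjusted p = 0.0157) without that sample. Pdgfra, the receptor that marks connective tissue fibroblasts, read 7.86, 10.90 and 5.56 in the epithelia and 11.60, 11.15 and 12.79 in the fibroblasts, with a difference of -3.74 ± 1.26 (adjusted p = 0.0649) and an adjusted p of 0.00601 without epithelia 2. Vim, the intermediate filament of mesenchymal cells, was uncalled at -2.08 ± 0.69 (adjusted p = 0.0614) with an adjusted p of 0.0116 without epithelia 2. The small proteoglycan Dcn was called at -1.94 ± 0.54 (adjusted p = 0.0371), but with 1 array left out it stayed called only without epithelia 2, and its adjusted p reached 0.113 in the other fits. Of the 22 fibroblast markers 5 were higher in the fibroblasts, a share near the 19.5% of all genes. The count was 21 without epithelia 2 and 2 without fibroblasts 3. Of the 19 epithelial markers 9 were higher in the epithelia, where 13.9% of all genes were, and 5 were without epithelia 2.

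The fibroblast samples also held marker RNA of other stromal cells. All 14 endothelial markers, all 7 nerve and glial markers, 7 of 9 neutrophil markers and 8 of 10 mast cell markers were higher there. So were 10 of 12 pericyte and smooth muscle markers, 8 of 19 macrophage markers and 6 of 19 skeletal muscle markers. Without fibroblasts 3 the mast cell count fell to 1 and the pericyte count to 4, and without epithelia 2 the macrophage count was 13 and the skeletal muscle count 10. On the epithelial side were 1 pericyte and smooth muscle marker (0 without epithelia 2) and 1 skeletal muscle marker. The neutrophil list averaged 7.93, 8.502 and 7.35 in the epithelia and 10.04, 10.01 and 9.70 in the fibroblasts. The macrophage list averaged 8.19, 9.21 and 6.89 against 9.80, 9.82 and 11.37, with fibroblasts 3 highest. Csf3r, the granulocyte growth factor receptor, read 6.65, 8.02 and 5.35 in the epithelia and 11.19, 11.13 and 10.57 in the fibroblasts, a difference of -4.29 ± 0.63 (adjusted p = 0.00496). Its 3 fibroblast samples all lay above the epithelia, of which epithelia 2 was highest. Itgam, an integrin of myeloid cells, differed by -3.31 ± 0.31 (adjusted p = 0.00137), Pecam1 of endothelium by -2.95 ± 0.51 (adjusted p = 0.00836) and Mbp of myelinating glia by -4.03 ± 0.22 (adjusted p = 2.81e-04). The T and NK cell list was the exception, with means of 6.503, 6.60 and 5.99 against 6.36, 6.47 and 6.497 and none of 14 genes called (1 at an unadjusted p under 0.05). All of its means lay under 7, the log2 signal used here to filter dim probe sets, so low signal and equal layers cannot be told apart. In an exact permutation test of 3 against 3 samples, whose smallest two-sided p is 0.1, the list means gave p = 0.1 for all lists other than skeletal muscle (0.200) and T and NK cells (1.00). The part of these cells in the gene differences below was not tested.

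**Figure D1:**
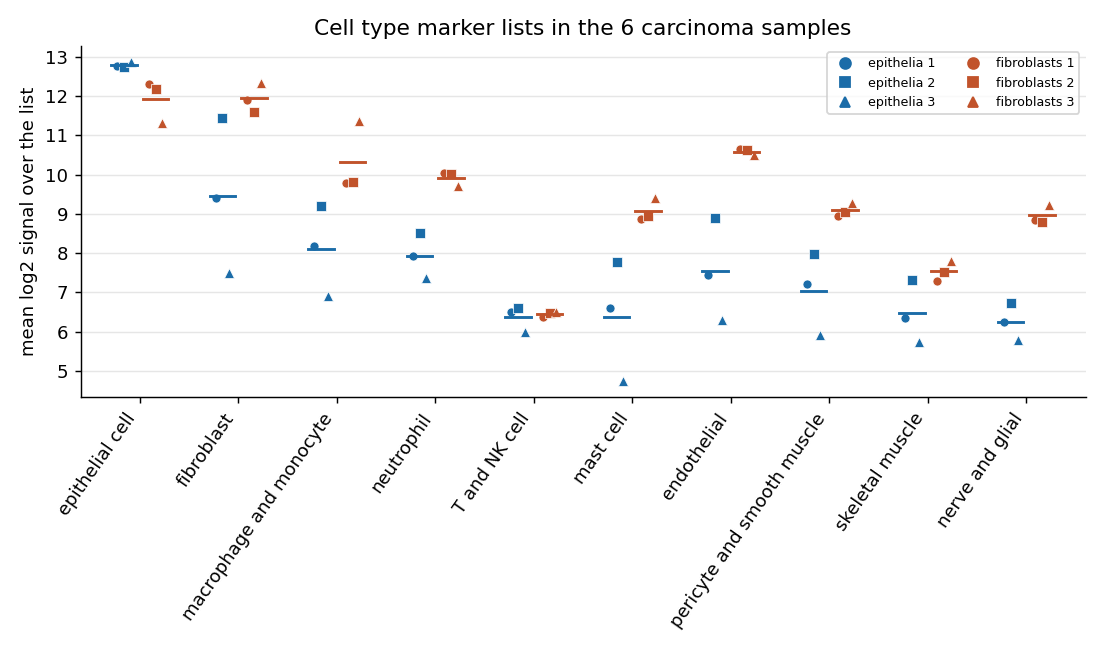
Mean log2 signal of each cell type marker list in the 6 carcinoma samples (y axis), by list (x axis). Each symbol is 1 sample, blue for epithelia and orange for fibroblasts, and each bar is a group mean. Epithelial markers stayed above 11 in every sample, the fibroblast list of epithelia 2 (11.44) lay next to the fibroblast samples, and the T and NK cell list lay between 5.99 and 6.60 in every sample.

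An RNA quality measure also moved with the layer. The log2 gap between the 3' and 5' probe sets of actin widens as RNA degrades. It was 1.42, 1.98 and 1.78 in the epithelia and 1.26, 1.197 and 1.14 in the fibroblasts. The same gap of GAPDH was smaller in every sample. It was 0.18, 0.24 and 0.21 in the epithelia and 0.18, 0.05 and 0.17 in the fibroblasts. Array signals correlated across probe sets at 0.971, 0.979 and 0.962 among the epithelia, and at 0.994 for fibroblasts 1 and 2 but 0.976 and 0.971 for fibroblasts 3 with each of those. Fibroblasts 1 and 2 were the closest samples of the comparison. The fibroblast samples numbered 3 stood apart at the other stages too. Fibroblasts 1 and 2 correlated at 0.992 in both normal tongue and dysplasia. With fibroblasts 3 they correlated at 0.961 and 0.965 in normal tongue and at 0.973 and 0.973 in dysplasia. The part of RNA quality and of sample similarity in the differences below was not tested.

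Most genes of the IL-1 system were higher in the fibroblast layer. Of 22 measured genes 15 were higher in the fibroblasts and 3 in the epithelia, with a median difference of -1.45, against 19.5% and 13.9% of all genes and a median near 0. Groups did not overlap for 18 of the 22 genes, where 51.2% of all probe sets had groups that did not overlap. Il1b, the secreted ligand, read 10.41, 10.61 and 9.25 in the epithelia and 13.59, 13.65 and 13.66 in the fibroblasts, which is 11.7-fold higher in the fibroblasts with a difference of -3.54 ± 0.35 (adjusted p = 0.00154). All 3 fibroblast samples sat within a narrow range well above the highest epithelial sample, and epithelia 3 was lowest. Il1a, the other agonist, read 9.15, 8.38 and 8.63 in the epithelia and 11.92, 11.86 and 12.503 in the fibroblasts at its brighter probe set, a difference of -3.37 ± 0.26 (adjusted p = 7.42e-04), and -4.63 at its other probe set. The fibroblasts were again all above the epithelia. Il33, an alarmin of stromal and barrier cells, differed by -1.56 ± 0.28 (adjusted p = 0.00943), while Il18, which needs caspase-1 for release, was not called at -0.996 ± 0.49 (adjusted p = 0.162). One ligand ran the other way. Il36b, an IL-1 relative made by keratinocytes, read 10.30, 9.74 and 9.52 in the epithelia and 5.73, 5.78 and 4.59 in the fibroblasts, a difference of 4.48 ± 0.37 (adjusted p = 8.82e-04), and no sample of either layer came near the other group.

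Inhibitors were called on both sides. Il1rn, the soluble antagonist of the IL-1 receptor, read 8.74, 8.01 and 8.66 in the epithelia and 11.74, 11.87 and 10.42 in the fibroblasts, a difference of -2.88 ± 0.41 (adjusted p = 0.00477), and fibroblasts 3 was the lowest of its group but above every epithelial sample. Il1r2, the decoy receptor that neutrophils also carry, read 9.52, 9.80 and 8.14 in the epithelia and 12.77, 12.79 and 12.18 in the fibroblasts and differed by -3.42 ± 0.44 (adjusted p = 0.00335). Fibroblasts 3 was again lowest of its group. The IL-36 antagonist Il36rn was on the epithelial side with its ligand, at 12.15, 12.03 and 11.96 in the epithelia and 8.89, 8.71 and 6.44 in the fibroblasts and a difference of 4.03 ± 0.62 (adjusted p = 0.00584), though fibroblasts 1 and 2 held clearly more of it than fibroblasts 3. Also higher in the fibroblasts were the inhibitory receptor Sigirr (-1.15) and the Il18 trap Il18bp (-0.81, adjusted p up to 0.0937 without epithelia 1).

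Of 4 receptors 3 were higher in the fibroblasts. Il1rap, the accessory chain, read 8.49, 8.15 and 8.16 in the epithelia and 9.54, 9.66 and 9.62 in the fibroblasts, a difference of -1.34 ± 0.14 (adjusted p = 0.00188) at the brighter of 2 probe sets and -0.34 (not called) at the other. The signalling receptor Il1r1 read 8.73, 9.97 and 8.39 in the epithelia and 10.57, 10.34 and 11.10 in the fibroblasts, with epithelia 2 close to the fibroblasts. It was called at -1.64 ± 0.43 (adjusted p = 0.0298), but only without epithelia 2 did the call remain when 1 array was left out, with an adjusted p up to 0.0950 in the other fits, and its 2 dimmer probe sets (0.45 and -0.23) were not called. The Il33 receptor Il1rl1 was called at -3.48 ± 0.73 (adjusted p = 0.0155), with an adjusted p of 0.0563 without epithelia 1 and 0.0504 without fibroblasts 1. Its second probe set, at -0.05, was not called. The IL-36 receptor Il1rl2 gave 0.19 ± 0.15 (adjusted p = 0.371). Inside the cell the adaptor Myd88 and the kinase Irak1 gave -0.04 and -0.05 without a call, whereas the inducible kinase Irak2 read 8.44, 8.29 and 8.02 in the epithelia and 11.34, 11.14 and 10.69 in the fibroblasts, a difference of -2.81 ± 0.21 (adjusted p = 6.26e-04). Pycard, the inflammasome adaptor, differed by -1.67 ± 0.27 (adjusted p = 0.00674), and Casp1, the protease that matures Il1b, by -2.21 ± 0.54 (adjusted p = 0.0242), with the adjusted p of Casp1 at 0.0666 without epithelia 1, 0.0582 without fibroblasts 1, 0.0544 without fibroblasts 2 and 0.0672 without fibroblasts 3. The other called signalling members were Irak3 (-1.80), Irak4 (-0.95) and Traf6 (0.53, adjusted p up to 0.124 without fibroblasts 1), of which Irak3 restrains the pathway and Traf6 was the one on the epithelial side.

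**Figure D2:**
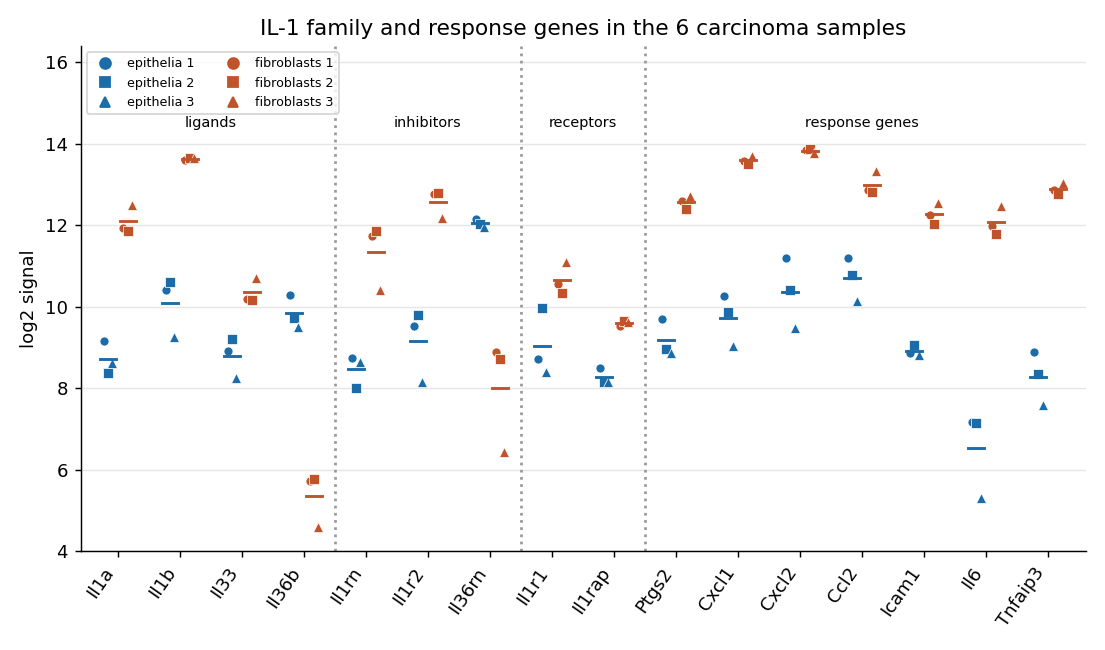
Log2 signal (y axis) of IL-1 ligands, inhibitors, receptors and response genes (x axis) in the 6 carcinoma samples, with the brightest probe set of each gene. Symbols are single samples and bars are group means. Il36b and Il36rn were higher in the epithelia, the other genes shown were higher in the fibroblasts, and only Il1r1 had an epithelial sample close to the fibroblast group.

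Genes that IL-1 and NF-kB switch on were higher in the fibroblasts almost throughout. Of 20 such genes 17 were called higher in the fibroblasts and none in the epithelia (1 at an unadjusted p under 0.05, 1 called without epithelia 2), with a median difference of -3.36. In these samples neutrophil, macrophage and endothelial marker lists were higher in the fibroblast layer too, as given above, and their part in these differences was not tested. Several of these genes hold a NF-kB type motif just upstream of their start. The letters GGGNNTTTCC were searched on both strands of the 250 bases before each RefSeq gene start in the GRCr8 assembly. They were found in 7 of the 16 response gene promoters that could be matched (43.8%), namely those of Ccl20, Cxcl1, Cxcl2, Il6, Nfkbia, Nfkbiz and Tnfaip3, against 435 of 33469 promoters overall (1.3%), 1 of 21 collagen promoters (4.76%, Col17a1) and none of 14 cornified envelope promoters. The promoters of the 3 with the largest layer differences among these 7 are printed 5′ to 3′ toward the gene, with the matches in capitals. A match is a description of the letters and not evidence of binding. The list was made of genes that IL-1 and NF-kB switch on, so its higher share is not a result of these samples. The lists count 1 promoter per gene, and the overall share counts every promoter.
Il6, chr4:5894576-5894825, minus strand: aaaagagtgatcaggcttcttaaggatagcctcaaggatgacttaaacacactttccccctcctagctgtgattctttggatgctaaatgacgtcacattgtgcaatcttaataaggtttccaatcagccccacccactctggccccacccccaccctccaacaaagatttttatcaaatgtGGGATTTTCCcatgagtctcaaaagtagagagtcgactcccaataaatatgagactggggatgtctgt
Tnfaip3, chr1:15543980-15544229, minus strand: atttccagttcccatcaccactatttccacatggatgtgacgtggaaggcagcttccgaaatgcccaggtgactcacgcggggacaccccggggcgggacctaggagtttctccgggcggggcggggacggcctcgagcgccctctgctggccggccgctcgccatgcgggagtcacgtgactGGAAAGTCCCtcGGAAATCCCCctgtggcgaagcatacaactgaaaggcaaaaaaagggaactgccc
Cxcl1, chr14:17479322-17479571, minus strand: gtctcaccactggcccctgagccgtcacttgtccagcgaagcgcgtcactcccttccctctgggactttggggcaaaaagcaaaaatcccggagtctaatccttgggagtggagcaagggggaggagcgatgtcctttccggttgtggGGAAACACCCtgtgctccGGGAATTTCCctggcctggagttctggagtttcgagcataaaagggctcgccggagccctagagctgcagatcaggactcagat

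The match in the Il6 promoter begins 68 bases before the start on the strand of the gene. That of Tnfaip3 begins 67 bases and that of Cxcl1 102 bases before the start, both on the opposite strand, and each of these promoters holds a further match downstream. Il6 itself, the inflammatory cytokine, read 7.17, 7.14 and 5.32 in the epithelia and 11.99, 11.79 and 12.46 in the fibroblasts, a difference of -5.54 ± 0.51 (adjusted p = 0.00124). The lowest fibroblast sample lay more than 4 log2 units above the highest epithelial one. Tnfaip3, which ends NF-kB signalling, read 8.88, 8.36 and 7.58 in the epithelia and 12.88, 12.76 and 13.03 in the fibroblasts and differed by -4.61 ± 0.32 (adjusted p = 5.34e-04). The other feedback inhibitors Nfkbia, Nfkbiz and Birc3 differed in the same direction, by -2.65, -2.35 and -3.13 (adjusted p = 5.41e-04, 4.76e-04 and 2.56e-04). Ptgs2, the enzyme COX2 of prostaglandin synthesis, read 9.70, 8.97 and 8.86 in the epithelia and 12.60, 12.41 and 12.71 in the fibroblasts, a difference of -3.40 ± 0.24 (adjusted p = 5.72e-04). Icam1, an adhesion receptor for leukocytes, read 8.86, 9.05 and 8.82 in the epithelia and 12.26, 12.04 and 12.54 in the fibroblasts, a difference of -3.37 ± 0.17 (adjusted p = 2.51e-04), with little spread in either layer. Saa3, an acute phase protein, read 6.96, 8.27 and 6.21 in the epithelia and 12.62, 12.77 and 10.65 in the fibroblasts, and fibroblasts 3 was the lowest of its group at a difference of -4.86 ± 0.71 (adjusted p = 0.00506). The called set was completed by the adhesion receptor Vcam1 (-4.12, adjusted p up to 0.120 without epithelia 1), the hyaluronan-binding Tnfaip6 (-3.80) and the superoxide enzyme Sod2 (-1.39). Ptges, the next enzyme after Ptgs2, was not called at -0.28 ± 0.36 (adjusted p = 0.571), nor was the cytokine Lif at 0.67 ± 0.25 (adjusted p = 0.0879). Mmp13, described with the proteases, was the other member without a call.

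Immediate early genes, which respond within minutes to serum, wounding or cell handling, lay on the same side. Of 18 genes 17 were higher in the fibroblasts and none in the epithelia (0 at an unadjusted p under 0.05), with a median difference of -1.98. Fosb, a partner in the AP-1 transcription factor, read 9.41, 6.38 and 7.65 in the epithelia and 12.83, 12.70 and 13.27 in the fibroblasts, a difference of -5.12 ± 0.70 (adjusted p = 0.00406). Fos read 12.32, 10.25 and 11.28 in the epithelia and 13.49, 13.46 and 13.65 in the fibroblasts, a difference of -2.25 ± 0.48 (adjusted p = 0.0159), and epithelia 1 was the highest of its group for both genes. Atf3, Nr4a1 and Egr1, also early transcription factors, differed by -4.63, -4.51 and -2.23 (adjusted p = 9.30e-04, 8.40e-04 and 7.16e-04), with every fibroblast sample above every epithelial one. Myc, a growth regulator, was higher in the fibroblasts by less, at -0.67 ± 0.18 (adjusted p = 0.0347), and stayed called with 1 array left out only without fibroblasts 2, with an adjusted p up to 0.102 without epithelia 3. None of the 11 matched promoters of this list held the GGGNNTTTCC letters. The fibroblast samples were plated in serum and the epithelia were not, so layer and handling cannot be told apart for these genes.

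Chemokines, which recruit leukocytes, were also higher in the fibroblasts where they were called, with a single exception. Among CXC genes 12 of 22 were higher in the fibroblasts and none in the epithelia (0 at an unadjusted p under 0.05, list median -1.67), and among CC genes 11 of 23 were higher in the fibroblasts and 1 in the epithelia (median -1.48). The neutrophil attractants Cxcl1, Cxcl2 and Cxcl3 are described first. Cxcl1 read 10.28, 9.88 and 9.05 in the epithelia and 13.57, 13.51 and 13.71 in the fibroblasts, a difference of -3.86 ± 0.30 (adjusted p = 7.78e-04), and Cxcl2 read 11.21, 10.42 and 9.48 in the epithelia and 13.85, 13.88 and 13.78 in the fibroblasts, a difference of -3.47 ± 0.40 (adjusted p = 0.00258). In both, epithelia 1 was highest and epithelia 3 lowest of the epithelial samples, with a clear gap to the fibroblasts. Cxcl3 differed by -3.63 ± 0.26 (adjusted p = 5.72e-04), with 3 of its 5 probe sets called and 2 dim ones not. The monocyte attractant Ccl2 read 11.21, 10.78 and 10.14 in the epithelia and 12.87, 12.81 and 13.32 in the fibroblasts, a difference of -2.29 ± 0.29 (adjusted p = 0.00324). Ccl3 and Ccl4, made by activated leukocytes, differed by -4.29 and -4.15 (adjusted p = 0.00113 and 0.00441). The eosinophil attractant Ccl11 read 5.14, 6.56 and 4.67 in the epithelia and 10.30, 10.06 and 12.36 in the fibroblasts, a difference of -5.45 ± 0.73 (adjusted p = 0.00371), and the lymphatic chemokine Ccl21 differed by -4.40 ± 0.74 (adjusted p = 0.00754). Ccl20, which draws Ccr6 cells and is made by epithelia in many tissues, read 9.17, 9.28 and 10.05 in the epithelia and 11.09, 10.94 and 10.90 in the fibroblasts, a smaller difference of -1.48 ± 0.25 (adjusted p = 0.00737) and still without overlap. Cxcl12, a stromal chemokine, was called at -3.44 ± 0.87 (adjusted p = 0.0273), but with 1 array left out only without epithelia 2, and its adjusted p reached 0.0904 otherwise. The remaining called ligands were the CXC members Cxcl10 (-2.56, adjusted p up to 0.0579 without epithelia 3), Cxcl14 (-1.67), Ppbp (-1.66), Cxcl16 (-0.79, adjusted p up to 0.0732 without epithelia 3) and Cx3cl1 (-0.78, adjusted p up to 0.0562 without fibroblasts 1) and the CC members Ccl9 (-3.89), Ccl7 (-3.63, adjusted p up to 0.111 without epithelia 1) and Ccl6 (-1.55).

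Of the chemokine receptors 3 of 8 in the CXC group and 2 of 7 in the CC group were higher in the fibroblasts. Ackr1, the scavenging receptor of venules, and Cxcr4, the Cxcl12 receptor, differed by -4.58 and -3.91 (adjusted p = 0.00325 and 0.00517), and the scavenger Ackr3 by -2.91 (adjusted p = 0.00109). Ccr1, a receptor of myeloid cells, read 6.72, 7.52 and 5.85 in the epithelia and 10.98, 11.02 and 11.09 in the fibroblasts, a difference of -4.33 ± 0.39 (adjusted p = 0.00117). Ccrl2, an atypical receptor that presents chemerin, read 5.95, 6.27 and 5.36 in the epithelia and 12.12, 12.12 and 12.23 in the fibroblasts, a difference of -6.30 ± 0.23 (adjusted p = 1.91e-04) and one of the largest on the array, with a narrow range in the fibroblasts. The neutrophil receptor Cxcr2 read 8.16, 7.22 and 7.62 in the epithelia and 8.78, 8.89 and 7.74 in the fibroblasts and was not called (-0.80 ± 0.37, adjusted p = 0.141). Its adjusted p was 0.0354 without fibroblasts 3. Ccr10, a receptor on skin-homing lymphocytes, was the single member higher in the epithelia, at 0.68 ± 0.12 (adjusted p = 0.00832). The other receptors of both families, Cxcr1, Cxcr3, Cxcr5, Cx3cr1, Ccr2, Ccr3, Ccr6 and Ackr2, lay between -0.49 and 0.43 without a call. Among ligands Pf4 (-3.09), Cxcl6 (-2.95) and Ccl19 (-1.77) were uncalled, as were Cxcl9, Cxcl11, Cxcl13, Ccl5, Ccl17, Ccl22, Ccl24, Ccl27 and Ccl28, which lay from -0.69 to 0.43.

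Cytokines of the colony stimulating and IL-6 families were higher in the fibroblasts where they were called. Of 18 genes 10 were higher in the fibroblasts and none in the epithelia (2 at an unadjusted p under 0.05, 1 called without epithelia 2, list median -1.63). Besides Il6, Osm, the myeloid cytokine oncostatin M, read 6.79, 6.80 and 6.20 in the epithelia and 11.63, 11.72 and 11.15 in the fibroblasts, a difference of -4.91 ± 0.23 (adjusted p = 2.51e-04). Csf3, the granulocyte factor, read 6.29, 5.46 and 5.35 in the epithelia and 9.39, 9.58 and 10.59 in the fibroblasts, a difference of -4.15 ± 0.38 (adjusted p = 0.00125). Both stood apart by more than 2 log2 units between the nearest samples. The shared receptor chain Il6st differed by -1.61 ± 0.18 (adjusted p = 0.00234) and the IL-11 receptor Il11ra1 by -3.58 ± 0.47 (adjusted p = 0.00352), with Csf3r as above. Further called members were the receptors Csf2ra (-3.06) and Il6r (-1.32) and the ligands Il34 (-2.16, adjusted p up to 0.0569 without epithelia 1) and Clcf1 (-1.65, adjusted p up to 0.111 without epithelia 1). Probe sets disagreed for 2 ligands. Csf2, the granulocyte and macrophage factor, was not called at its brighter probe set (0.57) and was called at the other (-4.26, adjusted p = 0.0012). Csf1, the macrophage factor, was likewise uncalled at -0.11 and at -0.09, and was called at -3.14 and -0.82 by its 2 other probe sets. The remaining uncalled members lay from -1.82 (Csf1r) to 0.36 (Lifr).

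The tumour necrosis factor family showed the same side, with 10 of 21 genes higher in the fibroblasts and none in the epithelia (0 at an unadjusted p under 0.05, list median -0.99). Tnf read 6.23, 5.96 and 5.99 in the epithelia and 10.69, 10.74 and 11.72 in the fibroblasts, a difference of -4.99 ± 0.29 (adjusted p = 3.37e-04). The groups lay more than 3 log2 units apart, and a second, uncalled probe set gave -0.14. Its receptor Tnfrsf1b, found on leukocytes, read 6.35, 6.60 and 5.64 in the epithelia and 10.60, 10.45 and 9.52 in the fibroblasts, a difference of -3.99 ± 0.36 (adjusted p = 0.00118), while the widely expressed receptor Tnfrsf1a was not called at -0.24 ± 0.12 (adjusted p = 0.157). Ltb, a lymphotoxin chain, differed by -2.75 ± 0.33 (adjusted p = 0.00275). Cd40, the costimulatory receptor of antigen-presenting cells, read 6.11, 6.85 and 5.81 in the epithelia and 7.85, 7.94 and 8.14 in the fibroblasts, a difference of -1.72 ± 0.27 (adjusted p = 0.00618). The other called ligands were Tnfsf10 (-3.32), Tnfsf12 (-3.13) and Tnfsf9 (-0.54, adjusted p up to 0.0587 without fibroblasts 1), of which Tnfsf10 is the death ligand TRAIL, and the other called receptors were Fas (-1.85), Tnfrsf12a (-1.17) and Ltbr (-1.03). The uncalled members lay from -1.56 (Tnfsf13) to 0.37 (Lta).

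Among prostaglandin genes the receptors Ptger2 and Ptger3 lay on opposite sides. Of 17 genes 5 were higher in the fibroblasts and 1 in the epithelia (median -0.10). Of the 6 receptors 1 was called in each direction, near the 19.5% and 13.9% of all genes. Ptger2, a receptor for prostaglandin E2, read 4.37, 4.76 and 4.09 in the epithelia and 7.66, 7.96 and 7.39 in the fibroblasts, a difference of -3.27 ± 0.22 (adjusted p = 5.23e-04). Ptger3, another receptor for the same ligand, read 8.51, 9.21 and 8.54 in the epithelia and 6.56, 6.18 and 6.71 in the fibroblasts, a difference of 2.27 ± 0.24 (adjusted p = 0.00197) in the opposite direction at the brighter probe set, while its other probe set (-0.19) was not called. For neither gene did any sample overlap the other layer. The receptors Ptger1 and Ptger4 were uncalled (0.23 and 0.13), as were Ptgfr and Tbxa2r (-0.13 and 0.06), though a second Ptgfr probe set was called at -2.17. Among the enzymes, besides Ptgs2, the called ones were the prostacyclin synthase Ptgis (-2.44), the prostaglandin D synthase Hpgds (-1.51, adjusted p up to 0.0784 without epithelia 1) and the constitutive Ptgs1 (-1.14, adjusted p up to 0.0915 without epithelia 3). The other enzymes were uncalled, from -0.34 (Ptgds) to 0.87 (Hpgd).

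Growth factor families held calls in both directions. In the EGF family 5 of 16 genes were higher in the epithelia and 5 in the fibroblasts, or 3 without epithelia 2 (median -0.13). Egfr, the receptor that drives keratinocyte growth, read 11.11, 10.71 and 11.11 in the epithelia and 10.06, 9.82 and 10.04 in the fibroblasts, a difference of 1.001 ± 0.16 (adjusted p = 0.00647), and its ligand Tgfa read 10.15, 9.99 and 9.90 in the epithelia and 8.88, 8.69 and 8.91 in the fibroblasts, a difference of 1.19 ± 0.13 (adjusted p = 0.00221). Receptor and ligand were both higher in the epithelial samples, all 3 above all 3 fibroblast samples. Hbegf, a ligand induced by wounding, read 9.47, 8.87 and 8.77 in the epithelia and 10.91, 11.10 and 11.18 in the fibroblasts, a difference of -2.03 ± 0.21 (adjusted p = 0.00182) on the fibroblast side. Areg, Egf and Erbb2 had calls that depended on single arrays. Areg was called at -0.97 ± 0.23 (adjusted p = 0.0219), with an adjusted p of 0.0554 without epithelia 2 and 0.0679 without epithelia 3. Erbb2, the partner receptor, was called at 1.28 ± 0.30 (adjusted p = 0.0220), with an adjusted p of 0.0730 without epithelia 1 and 0.0662 without epithelia 3. Egf was dim in both layers and called at -1.19 ± 0.32 (adjusted p = 0.0343), and with 1 array left out it stayed called only without fibroblasts 2, with an adjusted p up to 0.0731 without epithelia 2. On the epithelial side were also the neuregulins Nrg4 (1.27, adjusted p up to 0.0755 without epithelia 1) and Nrg2 (0.60, adjusted p up to 0.120 without epithelia 3), and on the fibroblast side the receptor inhibitors Lrig1 (-2.38) and Errfi1 (-1.75, adjusted p up to 0.0527 without epithelia 3). Ereg, Btc, Nrg1, Erbb3 and Erbb4 were uncalled, from -0.43 to 0.07, and the inhibitor Lrig3 was at 0.23. Nrg1 was uncalled at 7 of its 8 probe sets and called at 1 (-0.98).

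Fgf7, the stromal keratinocyte growth factor, read 4.74, 6.73 and 4.45 in the epithelia and 8.76, 8.25 and 10.17 in the fibroblasts, a difference of -3.75 ± 0.72 (adjusted p = 0.0117). Fgf22, a ligand of the same receptor class, read 7.10, 6.94 and 6.58 in the epithelia and 4.14, 4.72 and 4.43 in the fibroblasts, a difference of 2.44 ± 0.21 (adjusted p = 0.00100) toward the epithelia. The 2 ligands lay on opposite sides without overlap. In all, 5 of 16 family members were higher in the fibroblasts, 3 without fibroblasts 3, and 1 in the epithelia. Fgfr1 was called at -2.28 ± 0.70 (adjusted p = 0.0486) with an adjusted p up to 0.135 when an array other than epithelia 2 was left out, and Fgfr2 and Fgfr3 were not (0.43 and 0.60). The other calls were Fgfr4 (-0.92, adjusted p up to 0.0698 without epithelia 3), Fgf2 (-0.59, adjusted p up to 0.0655 without epithelia 3) and Fgf1 (-0.57, adjusted p up to 0.0806 without epithelia 3), and the other uncalled members lay from -0.73 (Fgf10) to 0.32 (Fgf9). Among the HGF genes 4 of 7 were higher in the epithelia and none in the fibroblasts (1 at an unadjusted p under 0.05, 1 called without fibroblasts 3). All 4 belong to the proteases that activate the ligands and their inhibitors. Spint1, an inhibitor of the HGF activator, read 10.73, 10.38 and 10.54 in the epithelia and 8.98, 8.94 and 7.64 in the fibroblasts, a difference of 2.03 ± 0.36 (adjusted p = 0.00939), and its target protease St14 differed by 1.52 ± 0.32 (adjusted p = 0.0159), with an adjusted p of 0.0530 without epithelia 1 and 0.0512 without epithelia 3. The others were the activating protease Hgfac (0.91) and the inhibitor Spint2 (0.63, adjusted p up to 0.117 without epithelia 3). Hgf, its receptor Met and the related ligand Mst1 were not called (-0.85, -0.23 and 0.40).

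Vessel growth factors lay with the fibroblasts, with 11 of 18 genes higher there and 1 in the epithelia (median -1.502). Vegfa read 9.99, 9.21 and 9.04 in the epithelia and 10.99, 10.60 and 11.22 in the fibroblasts, a difference of -1.52 ± 0.29 (adjusted p = 0.0112). Its fibroblast samples all lay above the epithelia. The lymphatic factor Vegfc and the placental factor Pgf differed by -1.47 and -2.25 (adjusted p = 0.00897 and 0.00872). Other ligands were Pdgfa (-1.48), Angpt2 (-2.79, adjusted p up to 0.0719 without epithelia 1) and Angpt1 (-2.06, adjusted p up to 0.115 without epithelia 1), and the one on the epithelial side was Pdgfd (0.78). The endothelial receptor Kdr was called at -3.03 ± 0.68 (adjusted p = 0.0191), with an adjusted p of 0.0591 without epithelia 1, 0.0604 without fibroblasts 1 and 0.0515 without fibroblasts 2. Its second probe set (0.30) was not called. The other called receptors were Tek (-3.37, adjusted p up to 0.0531 without epithelia 1), Nrp1 (-3.14, adjusted p up to 0.0693 without epithelia 1), Flt1 (-2.14) and Pdgfrb (-1.07, adjusted p up to 0.0649 without epithelia 3), mostly receptors of vessel cells, and all 14 endothelial markers were higher in the fibroblast samples as well. Besides Pdgfra, the uncalled members lay from -1.14 (Vegfb) to 0.30 (Flt4). Both IGF ligands were called on the fibroblast side, Igf1 at -4.36 ± 1.09 (adjusted p = 0.0262) and Igf2 at -3.503 ± 0.79 (adjusted p = 0.0195), and both calls rested on single arrays. Adjusted p for Igf1 was 0.0800 without epithelia 1, 0.0677 without fibroblasts 1, 0.0535 without fibroblasts 2 and 0.0731 without fibroblasts 3, and for Igf2 it was 0.0690 without epithelia 1, 0.0549 without fibroblasts 1 and 0.0554 without fibroblasts 3. Of 11 genes of that axis 6 were higher in the fibroblasts, 2 without fibroblasts 3. Igf2 was called in the epithelial direction by a dimmer probe set (0.55), and 2 more were uncalled. The binding proteins and the clearing receptor Igf2r gave Igfbp5 (-3.52, adjusted p up to 0.0504 without epithelia 1), Igfbp7 (-1.80, adjusted p up to 0.0694 without epithelia 1), Igfbp6 (-1.16, adjusted p up to 0.0554 without fibroblasts 1) and Igf2r (-1.01), and the uncalled members lay from -2.59 (Igfbp4) to 0.61 (Igfbp2).

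In the TGF-beta family 15 of 32 genes were higher in the fibroblasts and 2 in the epithelia (1 without epithelia 2, list median -1.05). Gdf10, a BMP-like ligand, read 4.005, 4.09 and 3.69 in the epithelia and 9.20, 8.89 and 11.59 in the fibroblasts, a difference of -5.97 ± 0.68 (adjusted p = 0.00239). Gdf15, a stress cytokine, read 6.56, 6.01 and 6.11 in the epithelia and 10.02, 10.38 and 10.68 in the fibroblasts, a difference of -4.13 ± 0.22 (adjusted p = 2.81e-04). Bmp4 and the activin trap Fst differed by -2.32 and -1.63 (adjusted p = 0.0105 and 0.00295). Of the TGF-beta isoforms Tgfb3 was called with any 1 array left out, at -1.11 ± 0.22 (adjusted p = 0.0123). Tgfb2 read 7.37, 8.72 and 7.14 in the epithelia and 9.76, 9.62 and 10.64 in the fibroblasts and was called at -2.26 ± 0.47 (adjusted p = 0.0148), with an adjusted p of 0.0551 without epithelia 1, and its second probe set (0.10) was not. Tgfb1 read 5.98, 6.67 and 6.05 in the epithelia and 7.21, 6.95 and 7.23 in the fibroblasts and was called at -0.90 ± 0.21 (adjusted p = 0.0229), with an adjusted p of 0.0692 without epithelia 1, 0.0714 without epithelia 3, 0.0752 without fibroblasts 1 and 0.0587 without fibroblasts 3. Bmpr1a, a BMP receptor, was on the epithelial side at 0.85 ± 0.16 (adjusted p = 0.0120), as was the co-receptor Tgfbr3 (0.65, adjusted p up to 0.0863 without epithelia 1). The receptors on the fibroblast side were Acvrl1 (-3.60, adjusted p up to 0.0515 without epithelia 1) and Tgfbr1 (-1.14, adjusted p up to 0.130 without epithelia 1), with Acvrl1 known from vessels. The other called ligands were Bmp1 (-1.31) and Inhbb (-0.99), and the other inhibitors Nbl1 (-2.81), Smad7 (-1.23), Fstl3 (-0.93) and Inha (-0.502, adjusted p up to 0.0951 without epithelia 2). Uncalled ligands lay from -1.41 (Inhba) to 0.497 (Bmp3), receptors from -0.33 (Acvr1) to 0.33 (Bmpr2) and inhibitors from -3.41 (Grem1) to 0.57 (Bambi).

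Called WNT ligands and called WNT inhibitors lay on opposite sides. Among the inhibitors Wif1, which binds WNT ligands, read 6.18, 7.99 and 6.82 in the epithelia and 10.60, 10.41 and 11.94 in the fibroblasts, a difference of -3.99 ± 0.57 (adjusted p = 0.00454), and Sfrp4 read 4.80, 5.97 and 4.56 in the epithelia and 9.20, 8.60 and 9.13 in the fibroblasts, a difference of -3.86 ± 0.38 (adjusted p = 0.00162). No epithelial sample reached the fibroblast range for either. A second, uncalled Sfrp4 probe set gave 0.16. The inhibitors Dkk3 (-2.53, adjusted p up to 0.0857 without epithelia 1) and Dkk2 (-1.16) were called too. The called ligands were higher in the epithelia, Wnt11 at 1.05 ± 0.17 (adjusted p = 0.00740) and Wnt4 at 0.96 ± 0.26 (adjusted p = 0.0342), the latter with an adjusted p of 0.0969 without epithelia 1, 0.0552 without epithelia 2, 0.0904 without epithelia 3 and 0.0544 without fibroblasts 1. Also on the epithelial side were the ligand Wnt6 (0.75, adjusted p up to 0.0506 without fibroblasts 1), the receptor Fzd6 (0.58, adjusted p up to 0.0827 without epithelia 3) and the co-receptor Lrp5 (0.37, adjusted p up to 0.137 without fibroblasts 1), and on the other the receptors Fzd4 (-1.12) and Fzd8 (-0.91). Over 27 genes 5 were higher in the epithelia (3 without epithelia 2, 3 without fibroblasts 3) and 6 in the fibroblasts. These list shares were near the 13.9% and 19.5% of all genes. Uncalled ligands lay from -0.84 (Wnt16) to 0.61 (Wnt5a), receptors from -0.83 (Fzd2) to 0.38 (Fzd3) and inhibitors from -1.54 (Sfrp2) to -0.04 (Frzb). Of 14 Notch genes 1 was higher in the epithelia (0 without epithelia 2) and 3 in the fibroblasts, also near the shares of all genes. The ligands Jag1, Jag2, Dll1 and Dll4 were uncalled, from -0.60 to 0.01. On the epithelial side was the receptor Notch3 (0.80, adjusted p up to 0.0725 without epithelia 1), and Notch1, Notch2 and Notch4 lay from -0.20 (Notch4) to 0.38 (Notch2). The called fibroblast members were the targets Hes1 (-1.01), Hey1 (-2.76) and Hey2 (-2.03), transcription factors of which the Hey genes are also known from vessels.

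**Figure D3:**
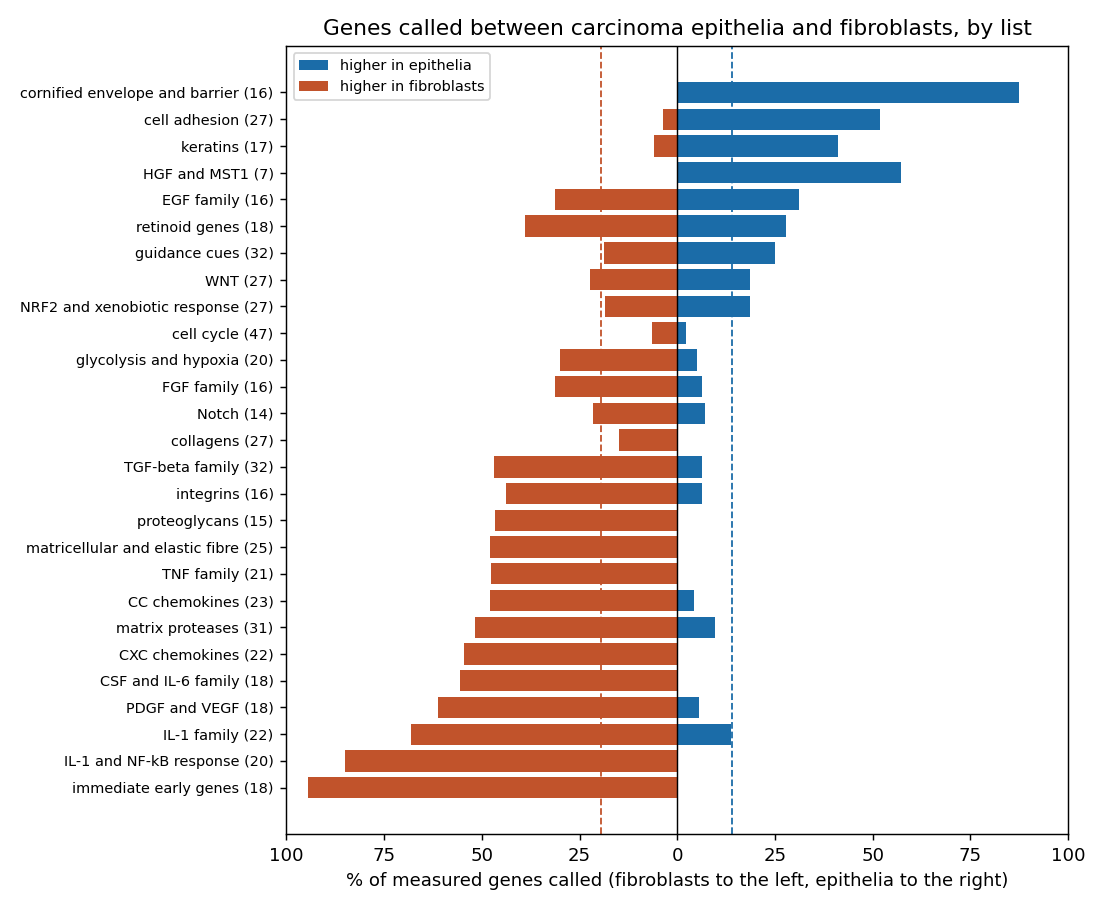
Percent of the measured genes of each list (number in brackets) called higher in the carcinoma fibroblasts (bars to the left) or epithelia (bars to the right) on the x axis, with 0 in the centre. Dashed lines mark the shares over all 14217 genes, 19.5% and 13.9%. Cornified envelope, adhesion and keratin genes extend to the right, and immediate early and IL-1 response genes furthest to the left.

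Epithelial genes of the upper layers were far higher in the epithelia, while basal keratins were not called. Of 16 cornified envelope and barrier genes 14 were higher in the epithelia and none in the fibroblasts (0 at an unadjusted p under 0.05), with a median difference of 2.82. Cdsn, which glues cornified cells together, read 13.12, 13.06 and 12.71 in the epithelia and 8.002, 6.60 and 6.67 in the fibroblasts, a difference of 5.87 ± 0.38 (adjusted p = 4.64e-04) or 58.6-fold. Lce1f, a late envelope protein, read 11.19, 10.97 and 9.87 in the epithelia and 6.53, 6.25 and 7.01 in the fibroblasts, a difference of 4.08 ± 0.38 (adjusted p = 0.00123). Cnfn, the envelope component cornifelin, read 13.36, 13.48 and 13.30 in the epithelia and 10.61, 10.48 and 8.93 in the fibroblasts, a difference of 3.37 ± 0.43 (adjusted p = 0.00335), and Tgm1, the transglutaminase that cross-links the envelope, differed by 2.46 ± 0.45 (adjusted p = 0.00984). For these 4 genes every fibroblast sample lay below every epithelial sample. Scel and Evpl, envelope scaffold proteins, differed by 3.42 and 2.91 (adjusted p = 0.00736 and 0.00605). Sprr3 was not called at 2.88 ± 1.12 (adjusted p = 0.0939). It read 13.85, 13.96 and 13.79 in the epithelia and 12.41, 12.43 and 8.12 in the fibroblasts, with fibroblasts 3 far below the other fibroblasts, and its adjusted p was 0.00190 without fibroblasts 3.

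Among 17 keratins 7 were higher in the epithelia and 1 in the fibroblasts (0 without epithelia 2, 3 without fibroblasts 3). The basal Krt5, Krt14 and Krt15 were not called. Krt15 read 11.30, 11.37 and 12.05 in the epithelia and 12.503, 12.49 and 11.52 in the fibroblasts, a difference of -0.60 ± 0.33 (adjusted p = 0.208) that was called in the fibroblast direction without fibroblasts 3 (-0.93, adjusted p = 0.0495). Krt4 and Krt13, the suprabasal pair of oral mucosa, were abundant in both layers and uncalled at 1.01 ± 0.47 (adjusted p = 0.148) and 1.25 ± 0.57 (adjusted p = 0.139). Krt13 read 14.09, 14.19 and 14.15 in the epithelia and 13.60, 13.63 and 11.44 in the fibroblasts, so that fibroblasts 3 was the lowest sample, and its adjusted p was 0.0274 without fibroblasts 3. The keratins of cornifying epithelium are described next. Krt10 read 12.997, 12.81 and 13.09 in the epithelia and 10.28, 10.15 and 8.80 in the fibroblasts, a difference of 3.22 ± 0.39 (adjusted p = 0.00283), and Krt1 differed by 1.78 ± 0.17 (adjusted p = 0.00149). Krt36, a hair-type keratin of tongue papillae, read 12.69, 13.31 and 13.01 in the epithelia and 8.73, 8.46 and 7.60 in the fibroblasts, a difference of 4.74 ± 0.32 (adjusted p = 4.94e-04), and Krt78 read 12.52, 12.37 and 12.07 in the epithelia and 7.96, 7.66 and 7.42 in the fibroblasts, a difference of 4.64 ± 0.19 (adjusted p = 2.01e-04). All 5 measured epidermal and hair keratins were higher in the epithelia, with a median of 2.88. Krt8, a simple epithelial keratin, was the one on the fibroblast side, at -1.89 ± 0.55 (adjusted p = 0.0432), and was not called in any fit with 1 array left out (adjusted p up to 0.0981).

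**Figure D4:**
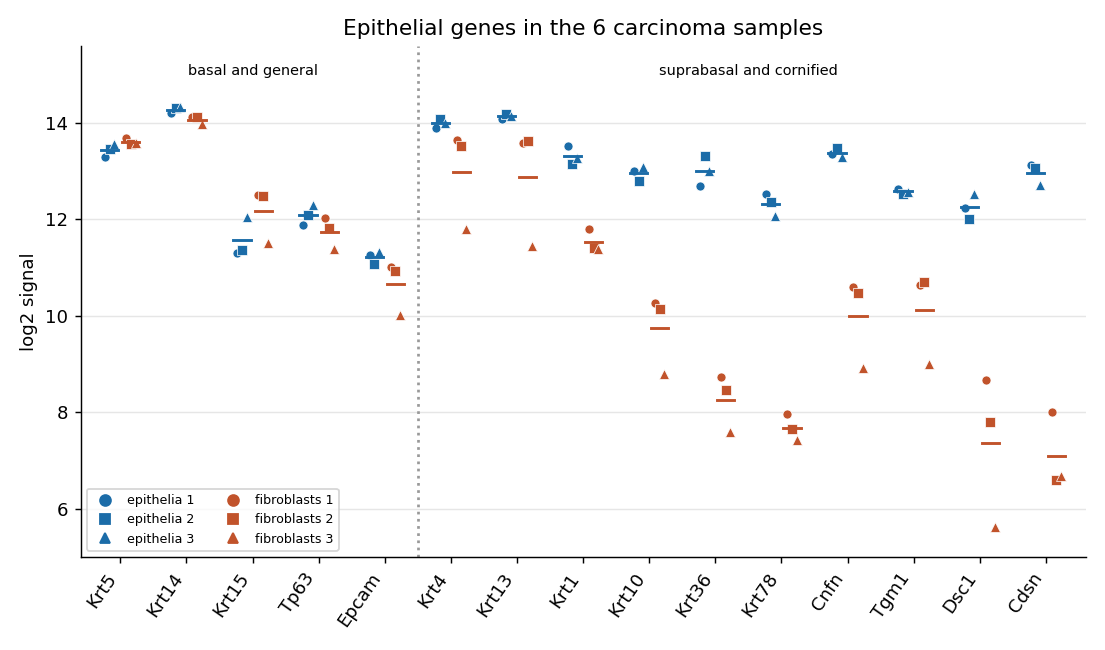
Log2 signal (y axis) of basal and general epithelial genes and of suprabasal and cornified genes (x axis) in the 6 carcinoma samples. Symbols are single samples and bars are group means. Krt5 and Krt14 lay above 13 in all 6 samples, whereas Cdsn, Dsc1, Krt36 and Krt78 lay below 9 in every fibroblast sample and above 12 in every epithelial sample.

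Junction genes were also higher in the epithelia. Of 27 adhesion genes 14 were higher in the epithelia (8 without epithelia 2) and 1 in the fibroblasts (2 without epithelia 2), including 7 of 10 desmosome genes (4 without epithelia 2). Dsc1, the desmosomal cadherin of upper layers, read 12.23, 12.01 and 12.52 in the epithelia and 8.67, 7.79 and 5.63 in the fibroblasts, a difference of 4.89 ± 0.72 (adjusted p = 0.00507). Dsg1, its partner, was called at 2.73 ± 0.59 (adjusted p = 0.0167) and had an adjusted p of 0.0570 without epithelia 1. Plakophilin Pkp3 and plakoglobin Jup differed by 1.58 and 1.15 (adjusted p = 0.00319 and 0.00887). Also called were the tight junction protein Cldn1 (2.23, adjusted p up to 0.123 without epithelia 1) and, as the one on the fibroblast side, the T-cadherin Cdh13 (-1.70). Desmoplakin, Dsp, was called at 0.66 ± 0.16 (adjusted p = 0.0259), with an adjusted p of 0.0665 without epithelia 1, 0.0573 without epithelia 2, 0.0752 without epithelia 3 and 0.0535 without fibroblasts 2, and its second probe set (-0.94) was not called. Grhl1 and Grhl3, which drive barrier formation, differed by 2.87 ± 0.49 (adjusted p = 0.00823) and 1.99 ± 0.30 (adjusted p = 0.00537), whereas Tp63, the factor of basal cells, was not called (0.34 ± 0.20, adjusted p = 0.232). The splicing factor Esrp1 differed by 1.30 ± 0.28 (adjusted p = 0.0160), with an adjusted p of 0.0511 without epithelia 1. Of the 15 mesenchymal regulators 10 were higher in the fibroblasts, 6 without fibroblasts 3. Zeb1, a repressor of epithelial genes, read 8.48, 8.98 and 7.96 in the epithelia and 10.38, 10.28 and 11.02 in the fibroblasts, a difference of -2.09 ± 0.31 (adjusted p = 0.00516). Twist1 was called at -3.26 ± 0.96 (adjusted p = 0.0432) with an adjusted p up to 0.113 when an array other than epithelia 2 was left out.

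Collagens had large differences toward the fibroblasts, few of which were called with epithelia 2 in the fit. Only 4 of 27 collagens were called, all on the fibroblast side, a share below the 19.5% of all genes. The list median was -2.004, and without epithelia 2 the count was 21 and the median -2.998. Col14a1, which lies on collagen fibrils, read 5.45, 8.66 and 4.95 in the epithelia and 11.07, 10.64 and 11.78 in the fibroblasts, a difference of -4.81 ± 0.94 (adjusted p = 0.0125). Its lowest fibroblast sample lay well above epithelia 2. Col3a1 read 11.69, 13.71 and 8.21 in the epithelia and 13.71, 13.47 and 13.86 in the fibroblasts, a difference of -2.48 ± 1.25 (adjusted p = 0.173) that was called only without epithelia 2 (-3.73, adjusted p = 0.0332). Lama2, a laminin chain of muscle and nerve basement membranes, read 5.91, 7.56 and 5.02 in the epithelia and 10.57, 10.15 and 11.39 in the fibroblasts, a difference of -4.54 ± 0.65 (adjusted p = 0.00472). Among matricellular genes 12 of 25 were higher in the fibroblasts (22 without epithelia 2, 7 without fibroblasts 3). Tnc, tenascin C of wounds and tumours, read 10.73, 11.40 and 10.74 in the epithelia and 12.76, 12.37 and 13.04 in the fibroblasts, a difference of -1.77 ± 0.25 (adjusted p = 0.00470), with every fibroblast sample above the epithelia. Postn, periostin of activated stroma, read 12.01, 13.30 and 8.18 in the epithelia and 12.90, 12.55 and 13.11 in the fibroblasts, so that epithelia 2 was the highest of all 6, and was not called (-1.69 ± 1.202, adjusted p = 0.319). Aspn, a small proteoglycan, read 6.89, 8.16 and 6.85 in the epithelia and 10.39, 10.09 and 11.28 in the fibroblasts, a difference of -3.29 ± 0.45 (adjusted p = 0.00393). Lum, a relative of Aspn, was uncalled at -2.53 ± 1.10 (adjusted p = 0.125), with an adjusted p of 0.0240 without epithelia 2. Thbs4 was called at -4.99 ± 1.33 (adjusted p = 0.0328) with an adjusted p up to 0.104 when an array other than epithelia 2 was left out. For proteoglycans the count was 7 of 15 (11 without epithelia 2, 4 without fibroblasts 3), and for cross-linking enzymes it was 5 of 12 (12 without epithelia 2, 0 without fibroblasts 3). Other called members were the matricellular Ccn1 (-2.83) and the elastic fibre protein Efemp1 (-3.79), the proteoglycans Vcan (-2.87, adjusted p up to 0.142 without epithelia 1) and Prelp (-2.79, adjusted p up to 0.0682 without epithelia 1), and the cross-linking enzymes Tgm2 (-3.45, adjusted p up to 0.0950 without fibroblasts 1) and Loxl1 (-3.44, adjusted p up to 0.115 without epithelia 1). Laminins gave 9 of 15, integrins 7 of 16 (4 without fibroblasts 3) and activated fibroblast genes 6 of 12 (3 without fibroblasts 3).

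Matrix proteases and their inhibitors were both higher in the fibroblasts. Of 31 genes 16 were higher there and 3 in the epithelia (median -1.998). Mmp9, a gelatinase that neutrophils store, read 7.22, 7.51 and 7.18 in the epithelia and 10.70, 10.51 and 10.58 in the fibroblasts, a difference of -3.29 ± 0.14 (adjusted p = 2.15e-04), with a narrow range in either layer. Mmp8, the neutrophil collagenase, differed by -2.70 ± 0.22 (adjusted p = 9.35e-04). Mmp3, stromelysin, read 9.93, 9.90 and 7.51 in the epithelia and 11.99, 11.81 and 13.59 in the fibroblasts and was called at -3.35 ± 0.77 (adjusted p = 0.0203), with an adjusted p of 0.0501 without fibroblasts 3. Mmp13 read 9.58, 8.59 and 8.47 in the epithelia and 10.15, 9.96 and 12.52 in the fibroblasts, was highest in fibroblasts 3 and was not called (-1.998 ± 0.70, adjusted p = 0.0728). Mmp2 read 8.55, 11.19 and 7.03 in the epithelia and 12.16, 11.71 and 12.97 in the fibroblasts and was called at -3.36 ± 0.99 (adjusted p = 0.0439), but with 1 array left out only without epithelia 2, with an adjusted p up to 0.123 otherwise, and its second probe set (0.02) was not called. The inhibitor Timp4 read 4.40, 4.63 and 3.93 in the epithelia and 9.002, 9.15 and 8.96 in the fibroblasts, a difference of -4.71 ± 0.20 (adjusted p = 2.01e-04), and Timp3 differed by -3.30 ± 0.42 (adjusted p = 0.00319). Timp1 was called at -3.06 ± 0.93 (adjusted p = 0.0474), and with 1 array left out it stayed called only without epithelia 2, with an adjusted p up to 0.121 without epithelia 1. Plaur, the urokinase receptor, read 7.23, 7.76 and 6.78 in the epithelia and 11.25, 11.56 and 11.98 in the fibroblasts, a difference of -4.34 ± 0.29 (adjusted p = 5.02e-04). Klk8 and Klk10, kallikreins of the shedding epithelial surface, were on the epithelial side at 3.25 ± 0.53 (adjusted p = 0.00711) and 3.03 ± 0.92 (adjusted p = 0.0483), and Klk10 kept its call with 1 array left out only without fibroblasts 3 (adjusted p up to 0.126). On the fibroblast side were also the secreted metalloprotease Adamts1 (-3.35), the aggrecanase Adamts4 (-3.10, adjusted p up to 0.0719 without fibroblasts 1), the aggrecanase Adamts5 (-2.74, adjusted p up to 0.110 without epithelia 1) and the membrane inhibitor Reck (-3.75, adjusted p up to 0.0509 without epithelia 1).

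Few proliferation genes were called. Of 47 cell cycle genes 1 was higher in the epithelia and 3 in the fibroblasts, and none of 22 mitosis genes was called (1 epithelial and 0 fibroblast genes at an unadjusted p under 0.05), with a median of 0.08. Pcna, the replication clamp, read 11.78, 11.95 and 12.08 in the epithelia and 12.90, 12.88 and 12.94 in the fibroblasts, a difference of -0.97 ± 0.13 (adjusted p = 0.00344), and the inhibitor Cdkn2c was on the epithelial side at 0.99 ± 0.12 (adjusted p = 0.00299), with a second, uncalled probe set at 0.22. On the fibroblast side were the cell cycle inhibitors Cdkn1c (-2.31) and Cdkn2d (-1.84). Of 30 interferon and MHC genes 12 were higher in the fibroblasts and 1 in the epithelia (2 without fibroblasts 3), with none of the 6 class II genes called at their brightest probe set (0 fibroblast genes at an unadjusted p under 0.05). They included the antiviral genes Oasl (-4.09) and Ifit3 (-4.03), and the one on the epithelial side was the virus tether Bst2 (1.02). RT1-Ba gave -5.59 (adjusted p = 4.64e-04) at 1 of its 4 probe sets and no call at the other 3. NRF2 and xenobiotic genes were called in both directions, 5 in the epithelia (3 without fibroblasts 3) and 5 in the fibroblasts of 27. Both counts were near the 13.9% and 19.5% of all genes. Hmox1, heme oxygenase, read 11.25, 11.03 and 10.30 in the epithelia and 12.27, 12.24 and 12.09 in the fibroblasts, a difference of -1.34 ± 0.25 (adjusted p = 0.0108), while the drug exporter Abcc3 was epithelial at 1.70 ± 0.22 (adjusted p = 0.00328), as was the cystine carrier Slc7a11 at 1.88 ± 0.39 (adjusted p = 0.0147), with an adjusted p of 0.0546 without epithelia 1. The epithelial set also held the quinone reductase Nqo1 (0.89, adjusted p up to 0.0949 without epithelia 3) and the carbonyl reductase Cbr1 (1.40, adjusted p up to 0.0687 without epithelia 3), and the fibroblast set the monooxygenase Fmo1 (-4.68). Glycolysis genes gave 6 fibroblast and 1 epithelial call of 20, retinoid genes 7 and 5 of 18, guidance cues 6 and 8 of 32, complement 5 and none of 12 (3 without fibroblasts 3), and S100 genes 6 and none of 13, a list that does not hold S100a7l2. Without fibroblasts 3 the complement and S100 lists each held 1 epithelial call, and at an unadjusted p under 0.05 they held 0 and 2. S100a8, a chain of the calprotectin of neutrophils and stressed keratinocytes, read 12.26, 12.61 and 11.97 in the epithelia and 13.19, 13.25 and 13.18 in the fibroblasts, a difference of -0.93 ± 0.18 (adjusted p = 0.0118). Examples from these lists on the fibroblast side were the glucose carrier Slc2a3 (-3.44), the lactate carrier Slc16a3 (-1.95), the retinoid enzyme Aldh1a2 (-2.92, adjusted p up to 0.0518 without epithelia 1), the complement factor Cfd (-4.14), the guidance cue Sema3b (-4.29) and the guidance cue Ntn1 (-3.70), and on the epithelial side the retinol receptor Stra6 (2.69) and the ephrin receptor Ephb6 (2.41).

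Genes that the study names were mostly on the fibroblast side. Of 27 such genes 21 were higher in the fibroblasts and 3 in the epithelia, and since the study named them with these samples among its data the count is not independent evidence. The epithelial ones were Gsdma, a pore-forming gasdermin of differentiated epithelium, the annexin Anxa9 and the glutaredoxin Glrx. Gsdma read 9.52, 8.84 and 8.500 in the epithelia and 4.92, 4.67 and 4.69 in the fibroblasts, a difference of 4.19 ± 0.26 (adjusted p = 4.12e-04). Anxa9 read 10.58, 10.16 and 9.93 in the epithelia and 6.28, 6.21 and 5.56 in the fibroblasts, a difference of 4.21 ± 0.25 (adjusted p = 3.65e-04), and Glrx read 13.30, 13.37 and 13.12 in the epithelia and 12.41, 12.37 and 12.37 in the fibroblasts, a difference of 0.88 ± 0.12 (adjusted p = 0.00415). None of the 3 overlapped between layers. The others on the fibroblast side are given with their pathways. Vsnl1, a calcium sensor, read 10.70, 10.87 and 11.14 in the epithelia and 11.07, 11.05 and 9.66 in the fibroblasts and was not called (0.31 ± 0.39, adjusted p = 0.569), and neither was the clock factor Dbp at -1.36 ± 0.46 (adjusted p = 0.0661).

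The largest differences of all were named by size alone. In the epithelia these included genes of the cornified surface. S100a7l2 was the largest, at 11.91, 12.13 and 11.64 in the epithelia and 5.68, 4.82 and 4.14 in the fibroblasts. Its difference was 7.01 ± 0.38 (adjusted p = 2.81e-04). Kprp, a late envelope protein, was next at 6.37 ± 0.44 (adjusted p = 5.29e-04). With them were Tchh (5.51), Lce3b (5.59, and 4.13 at its brighter probe set), the secreted Slurp1 (5.38) and Slurp2 (5.67), the peptide carrier Slc15a1 (5.53), Esyt3 (5.74) and Bpifa5 (5.27), besides Cdsn and 2 genes known only as LOC102549828 (6.27, and 2.83 at its brighter probe set) and LOC100363236 (6.10). In the fibroblasts Scara5, a ferritin receptor, read 4.38, 5.10 and 3.71 in the epithelia and 10.64, 9.90 and 12.09 in the fibroblasts, a difference of -6.48 ± 0.60 (adjusted p = 0.00123). It was followed by Ccrl2, the transporter Abca8a (-6.19), Gdf10, the phosphatase Dusp2 (-5.89), the myeloid lectin Siglec5 (-5.88), the lipid carrier Apod (-5.86), RT1-Ba at the probe set given above, Il6, Ccl11, the scavenger receptor Olr1 (-5.45) and the matrix protein Dpt (-5.38). Dpt lost its call without epithelia 1 (adjusted p = 0.0584).

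The layer differences of carcinoma were set against those of normal tongue and of dysplasia, to see which signals changed layer. In a fit over all 18 arrays 19692 probe sets were called between the layers of normal tongue, 15631 in dysplasia and 11882 in carcinoma. The change of the layer difference from normal tissue to carcinoma was called for 2210 probe sets toward the epithelia (7.12%) and 2916 toward the fibroblasts (9.39%). The size of this balance followed the scaling, while its direction did not. Alignment on the spiked controls moved the median change from -0.07 to -0.62 and left 559 calls toward the epithelia and 6800 toward the fibroblasts. Quantile normalization gave 2645 toward the epithelia and 2954 toward the fibroblasts. Without carcinoma fibroblasts 1 the calls numbered 3259 and without carcinoma fibroblasts 2 they numbered 3101, against 5126. Leaving out carcinoma epithelia 3 turned the direction, with 2505 calls toward the epithelia and 2457 toward the fibroblasts. Several matrix and chemokine genes changed toward the epithelia. Ccl2 measured 4.90 ± 0.27 (SD, n = 3) in normal epithelia, 9.05 ± 0.60 in dysplasia and 10.71 ± 0.54 in carcinoma, while the fibroblasts measured 13.01 ± 0.40, 12.36 ± 0.40 and 12.999 ± 0.28. Its layer difference changed by 5.82 ± 0.46 (adjusted p = 6.19e-06). Postn measured 5.06 ± 0.99 in normal and 11.17 ± 2.66 in carcinoma epithelia, and 12.94 ± 0.57 and 12.85 ± 0.28 in the fibroblasts, a change of 6.19 ± 1.32 (adjusted p = 0.00614), with a wide spread among the carcinoma epithelia. Lum, Aspn, Fam111a and the B cell chemokine Cxcl13 also changed toward the epithelia, by 5.996, 5.68, 5.91 and 5.55. Lum was not called without normal epithelia 3 (adjusted p = 0.0666) and Cxcl13 was not called without carcinoma fibroblasts 2 (adjusted p = 0.0895), among other fits with 1 array left out, of which 13 of 18 and 9 of 18 kept the calls. The fibroblast marker list averaged 6.96 in normal epithelia, 7.36 in dysplastic epithelia and 9.44 in carcinoma epithelia. The macrophage list averaged 5.87 in normal and 8.10 in carcinoma epithelia, and the endothelial list 6.10 and 7.54. The nerve and glial list (6.58 and 6.25) and the epithelial list (12.91 and 12.79) were lower in carcinoma epithelia. The part of these lists in these changes was not tested.

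Several IL-1 genes changed the other way. Il1a at the probe set with the larger change measured 5.95 ± 0.60, 6.005 ± 0.12 and 6.33 ± 0.62 in the epithelia over the stages, and 5.25 ± 0.36, 7.64 ± 0.81 and 10.96 ± 0.28 in the fibroblasts. The epithelial means lay close together and the fibroblast mean was higher at each later stage. The layer difference changed by -5.33 from normal and by -2.999 from dysplasia. The change from dysplasia had an adjusted p up to 0.0662 without dysplasia fibroblasts 2, and it was not called at the brighter Il1a probe set. Il1rn measured 8.32 ± 0.14, 8.62 ± 0.21 and 8.47 ± 0.40 in the epithelia against 6.36 ± 0.47, 8.44 ± 0.27 and 11.34 ± 0.80 in the fibroblasts. Its change was -4.84 ± 0.46 (adjusted p = 2.88e-05) from normal and -3.05 ± 0.46 (adjusted p = 0.00848) from dysplasia, and the layer with the higher mean was the epithelium in normal tongue and the fibroblasts in carcinoma. Il1r2 changed by -4.16 ± 0.52 (adjusted p = 1.78e-04) and Il1rap by -1.77 ± 0.21 (adjusted p = 9.97e-05) from normal, whereas Il1b, already -6.45 between the layers of normal tongue, changed toward the epithelia by 2.91 ± 0.75 (adjusted p = 0.0164). Among the IL-1 family 8 of 22 genes changed toward the fibroblasts and 1 toward the epithelia from normal tissue. Of 20 IL-1 and NF-kB response genes 3 changed toward the fibroblasts and 8 toward the epithelia. Over all probe sets 9.39% changed toward the fibroblasts and 7.12% toward the epithelia, and the counts of 1 and 3 lie near these shares. Saa3 measured 5.25 ± 0.32 in normal and 12.01 ± 1.18 in carcinoma fibroblasts, a change of -5.08 ± 0.82 (adjusted p = 0.00104). The neutrophil list averaged 7.40 in normal, 8.69 in dysplastic and 9.92 in carcinoma fibroblasts. In the epithelia it averaged 6.33, 6.82 and 7.93 over the same stages. The part of this list in these changes was not tested. Krtap1-1, a hair-type keratin associated protein, measured 11.55 ± 0.43 in normal and 5.98 ± 0.37 in carcinoma epithelia.

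**Figure D5:**
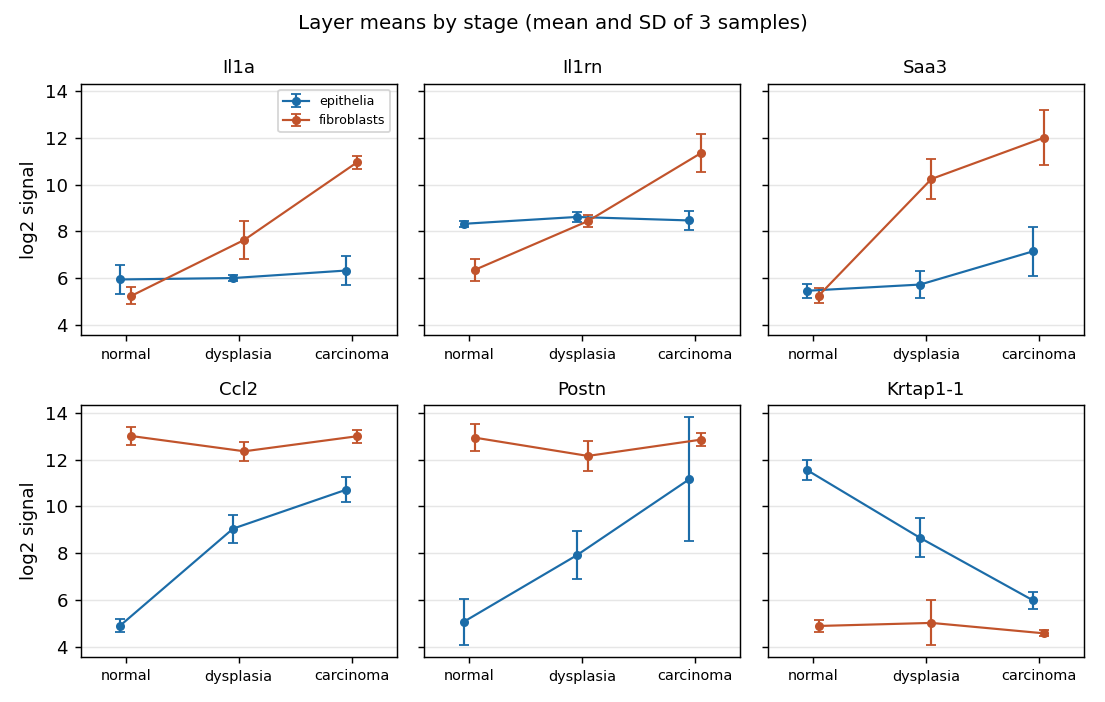
Mean log2 signal with SD of 3 samples (y axis) in epithelia and fibroblasts at the normal, dysplasia and carcinoma stages (x axis) for 6 genes with large changes of the layer difference. Il1a is shown by its dimmer probe set. The fibroblast means of Il1a (5.25 and 10.96), Il1rn and Saa3 were higher in carcinoma than in normal tongue, as were the epithelial means of Ccl2 and Postn, while the epithelial mean of Krtap1-1 was lower (11.55 and 5.98).

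Between dysplasia and carcinoma the layer difference changed for few probe sets, 12 toward the epithelia (0.0387%) and 190 toward the fibroblasts (0.612%). Alignment on the spiked controls moved the median change from -0.03 to -0.84 and gave 14 calls toward the epithelia and 12283 toward the fibroblasts. This comparison shares its carcinoma samples with the one against normal tissue. Il1a, at its dimmer probe set only, and Il1rn were among the 6 largest changes toward the fibroblasts, with Nefh, Rab11fip1, Zfp457 and Dck. Ryr3, Cald1 and Actn3, genes of contractile cells, were among those toward the epithelia. Ryr3, a calcium channel, measured 7.999 ± 0.53 in dysplasia and 6.16 ± 0.39 in carcinoma fibroblasts. Cald1, an actin regulator, measured 8.78 ± 0.29 in dysplasia and 10.48 ± 0.65 in carcinoma epithelia. The skeletal muscle list averaged 8.28 in dysplasia and 7.54 in carcinoma fibroblasts. With single arrays left out the changes of Ryr3, Cald1, Actn3 and Rab11fip1 had adjusted p up to 0.0581 without carcinoma fibroblasts 2, 0.0845 and 0.0609 without dysplasia epithelia 3, and 0.148 without carcinoma fibroblasts 1. Under the spike-in alignment the change of Actn3 was 0.64 (adjusted p = 0.0987), and under quantile normalization that of Rab11fip1 was -2.62 (adjusted p = 0.0585). The total of 202 calls became 508 without carcinoma fibroblasts 3 and 351 without normal fibroblasts 3. It was 123 without normal epithelia 1, 102, 114 and 56 without dysplasia epithelia 1, 2 and 3, 121 and 66 without dysplasia fibroblasts 1 and 2, 115 without carcinoma epithelia 2, and 68 without carcinoma fibroblasts 1 and also without carcinoma fibroblasts 2.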

How the data were processed

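Each of the 18 samples, 3 in each of 6 groups of stage and layer, was read on 1 Affymetrix rat expression array, and groups were taken from the sample titles. The authors deposited probe set intensity values on a linear scale, normalized between arrays, and each array has 1 as its minimum. RMA and Affymetrix Expression Console are the tools in the submitters' processing notes, with no versions given in the sources used here, and how the values were put on that scale is not stated. No column of the table was left out (0 columns).

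Values were taken to log2 and control probe sets were removed, leaving 31042. Carcinoma epithelia and fibroblasts were compared with limma 3.58.1 (lmFit and eBayes) in R 4.3.3 over the 6 carcinoma arrays without a block, with Benjamini-Hochberg adjustment and calls at an adjusted p under 0.05. Changes of the layer difference between stages were interaction contrasts over all 18 arrays. The fits were tested on simulated data with 200 changed probe sets. Gene lists were described by counts and medians with 1 probe set per gene, the one with the highest mean signal, using the symbols of GEO's platform annotation. Marker list means were compared by an exact permutation test. Promoter sequences were those of RefSeq in the GRCr8 assembly, and figures were drawn with matplotlib 3.10.9.

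The text names the genes listed by the study, up to 12 called genes per direction with the largest differences whose groups did not overlap, as many as 4 called members of each list and role, the signalling members (uncalled ones mostly by range), up to 6 genes per direction for each stage change, and the markers that check the labels. Where a list gives only examples the remainder is in its counts. The members and lists were chosen with earlier results of these data known.

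The alternatives were a filter on dim probe sets (mean log2 signal above 7 in a group), a floor of 64, quantile normalization, alignment on the spike-in controls, all 18 arrays in 1 fit, the replicate number as a block, a trended and robust variance, array weights, the t-test named in the methods, 1 probe set per gene, an unadjusted p combined with a fold of 2 or more, and each array left out. Fits without both epithelia 2 and fibroblasts 3, list counts without either, and rescaled marker means were chosen after seeing the data. The number of arrays limits the precision. The table analysed holds no detection calls, so signals were not set against background.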

Additional observations from a re-analysis of the deposited data

Results flagged for a closer look

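These values are changes of the layer difference (epithelia minus fibroblasts, log2) from an earlier stage to carcinoma. They are listed because the interaction term of limma over all 18 arrays called them, so that the layer difference of carcinoma differed from that of the earlier stage. They were taken from the genes that the study names and from the largest changes in each direction. No explanation was tested for any of them.

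Against normal tongue the largest changes toward the epithelia were those of the matrix genes Postn (6.19), Lum (5.9957) and Aspn (5.68), of the protease Fam111a (5.91) and of the chemokines Ccl2 (5.82) and Cxcl13 (5.55). Further changes toward the epithelia were those of Cxcl2 (4.29 ± 0.80, adjusted p = 0.00266), Mmp3 (3.67 ± 0.89, adjusted p = 0.0122), Il1b (2.91), Icam1 (2.31 ± 0.22, adjusted p = 2.88e-05), Ptgs2 (2.20 ± 0.57, adjusted p = 0.0168), Tgfb2 (2.01 ± 0.53, adjusted p = 0.0179) and Myc (0.87 ± 0.25, adjusted p = 0.0284). In carcinoma itself Ccl2, Aspn, Cxcl2, Mmp3, Il1b, Icam1, Ptgs2, Tgfb2 and Myc were called higher in the fibroblasts, and Postn, Lum, Fam111a and Cxcl13 were not called. Tgfb2 was not called without carcinoma fibroblasts 2 (adjusted p = 0.0530), and Myc kept its call in 11 of 18 fits with 1 array left out (adjusted p up to 0.0815). Under the alignment on the spiked controls Myc changed by 0.32 (adjusted p = 0.529), Tgfb2 by 1.46 (adjusted p = 0.0554) and Ptgs2 by 1.66 (adjusted p = 0.0587), none of them called.

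Toward the fibroblasts Il1a changed by -5.33 and -4.07 at its 2 probe sets, Il1rn by -4.84, Il1r2 by -4.16, Saa3 by -5.08 and Il1rap by -1.77. The hair keratin associated proteins Krtap1-1 and Krtap1-5 changed by -5.25 and -5.0971, the monooxygenase Fmo2 by -4.9966 and the steroid sulfatase Sts by -4.90. Gsdma changed by -1.88 ± 0.35 (adjusted p = 0.00272), Hmox1 by -1.79 ± 0.32 (adjusted p = 0.00205), Glrx by -1.63 ± 0.25 (adjusted p = 6.43e-04) and Anxa9 by -1.26 ± 0.33 (adjusted p = 0.0177). Anxa9 was not called without carcinoma fibroblasts 1 (adjusted p = 0.0522).

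Against dysplasia the changes toward the fibroblasts were those of Il1rn (-3.05), Il1a (-2.9992), the neurofilament Nefh (-2.78 ± 0.38, adjusted p = 0.00563), Rab11fip1 (-2.66 ± 0.57, adjusted p = 0.0491), Zfp457 (-2.61 ± 0.35, adjusted p = 0.00550), the kinase Dck (-2.58 ± 0.43, adjusted p = 0.0145) and Il1rap (-1.27 ± 0.21, adjusted p = 0.0128). Toward the epithelia they were Ryr3 (2.72 ± 0.48, adjusted p = 0.0175), Cald1 (2.07 ± 0.39, adjusted p = 0.0269), Actn3 (1.45 ± 0.26, adjusted p = 0.0179), the olfactory receptor Olr59 (1.03 ± 0.21, adjusted p = 0.0381), Rab6b (0.9988 ± 0.19, adjusted p = 0.0272) and the fatty acid carrier Fabp3 (0.89 ± 0.17, adjusted p = 0.0267). Olr59, Rab6b and Fabp3 kept their calls in 6, 10 and 11 of 18 fits with 1 array left out, with adjusted p up to 0.104, 0.0876 and 0.0840 without carcinoma fibroblasts 1. Under the alignment on the spiked controls Actn3 (0.64, adjusted p = 0.0987), Olr59 (0.21, adjusted p = 0.568), Rab6b (0.19, adjusted p = 0.606) and Fabp3 (0.08, adjusted p = 0.812) were not called. Under quantile normalization Rab11fip1 was not called (-2.62, adjusted p = 0.0585). The change of Il1a against dysplasia was called at its dimmer probe set only.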

How the results depend on the processing

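The full fit called 9413 probe sets between the carcinoma layers, 4479 toward the epithelia and 4934 toward the fibroblasts. With dim probe sets left out 2803 were higher in the epithelia. A floor of 64 gave 5080 calls (2404 and 2676), the methods' t-test 5204 (2783 and 2421), 1 probe set per gene 4953 (2080 and 2873), and an unadjusted p combined with a fold of 2 or more 4965 with 1488 in the epithelia. The spike-in alignment gave 8218 and 3254, and array weights gave 6861 in the epithelia. Leaving out 1 array gave from 5489 to 7673 calls, 2517 to 3494 in the epithelia and 2972 to 4572 in the fibroblasts. Deviations from the group means correlated at -0.03, -0.31 and -0.29 between layers for the same replicate numbers, and the numbers were not taken to pair the samples. That check cannot show whether samples of the same number came from the same rats. A replicate block gave 4963 calls (2161 and 2802). It gave 3111 (1238 and 1873) for the change from normal tissue and 14 (0 toward the epithelia and 14 toward the fibroblasts) for the change from dysplasia, where limma found 3312 probe sets at an unadjusted p under 0.05. With the block none of the 13 changes against dysplasia named above was called, with adjusted p from 0.0515 for Zfp457 to 0.190 for Rab6b, 0.0759 for Il1rn and 0.12 for Il1a, and against normal tissue Mmp3 (0.0590), Tgfb2 (0.0666), Myc (0.0748) and Cxcl13 (0.0857) were not called. Under the spike-in alignment the changes from normal tissue were 559 toward the epithelia and 6800 toward the fibroblasts, and those from dysplasia were 12297 with 12283 toward the fibroblasts. Quantile normalization gave 23 changes from dysplasia toward the epithelia. With 1 of 18 arrays left out the changes from normal tissue numbered 3101 to 6790 (1158 to 3166 and 1935 to 3624) and those from dysplasia 56 to 508 (1 to 118 and 55 to 392). Of the 303 called genes followed, 115 lost their call under the floor of 64, 145 under the t-test, 81 under the replicate block, 92 without epithelia 1 and 20 without epithelia 2. With 1 array left out the difference of the marker list means ranged from -0.1952 to 0.1099 for T and NK cells, -3.7142 to -2.4231 for endothelium, 0.5504 to 1.0441 for epithelial cells, -3.5031 to -1.5264 for fibroblasts, -2.7870 to -1.6291 for macrophages, -3.4134 to -1.8990 for mast cells, -2.9491 to -2.4808 for nerve and glia, -2.2747 to -1.7000 for neutrophils, -2.5250 to -1.5009 for pericytes and -1.5093 to -0.7138 for skeletal muscle. None of the 303 called genes followed changed direction under any of these alternatives, and other called probe sets were not followed. The signs that turned belonged to small uncalled differences. Under the spike-in alignment they were 0.1343 for Krt5, 0.2749 for Myd88, 0.2643 for Irak1, 0.0266 for Ptges, 0.1970 for Csf1, 0.0683 for Tnfrsf1a, 0.0775 for Met and 0.233 for the T and NK list. Quantile normalization gave 0.1134 for Myd88, 0.1375 for Irak1, 0.1129 for Csf1 and 0.0255 for the T and NK list. Array weights gave 0.0365 for Myd88, 0.0136 for Ptges and -0.0976 for Vsnl1. Without epithelia 2 and fibroblasts 3 the values were 0.0354 for Myd88, 0.0032 for Irak1, 0.1571 for Ptges and -0.1373 for Vsnl1. With 1 array left out the ranges were -0.1149 to 0.0711 for Myd88, -0.1331 to 0.0169 for Irak1, -0.5072 to 0.124 for Ptges, -0.0708 to 0.2499 for Ptger4, -0.2988 to 6e-04 for Csf1, -0.5277 to 0.0211 for Met and -0.1547 to 0.5493 for Vsnl1. The causes of these shifts were not tested.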
